A study of Mus musculus with 10 samples.

Results

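Serotonin receptor messages were examined in ribosome-bound RNA of dorsal and ventral hippocampus. The set held 10 of the 54838 gene identifiers in the count tables, chosen by gene symbol (Htr1a, Htr1b, Htr1d, Htr2a, Htr2c, Htr3a, Htr4, Htr5a, Htr6 and Htr7), with earlier results of these data known. Of these 10, 9 passed the filter on low counts. The 4 remaining mouse serotonin receptor genes were examined apart from this set. The study asked how mossy cells, the glutamatergic neurons of the dentate hilus, differ along the dorsoventral axis. Both groups came from male MC-TRAP mice about 10 weeks old of the C57BL/6 strain, from lines bred with C57BL/6J mice (genotype Drd2-Cre;Eef1a1LSL.eGFPL10a/+), in which Cre under Drd2 control switches on an EGFP-tagged ribosomal protein L10a, so that every library, dorsal or ventral, carries the same alleles. Hippocampi were cut into a shorter dorsal and a longer ventral segment with the ventral subiculum removed, tissue of 5 mice was pooled per library, and 5 Dorsal and 5 Ventral libraries were made. P-values therefore measure the spread between pools. Both regions were dissected from the same set of mice, and since the sources used here do not say which dorsal and ventral pools share mice, the tests treated the pools as unpaired. Drd2-Cre is also active in sparse hippocampal interneurons, so the precipitate is enriched for mossy cells but not pure.

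Serotonin reaches the hippocampus through axons of the raphe nuclei. Its receptors fall into classes by what they engage: the 5-HT1 and 5-HT5A receptors couple to Gi/o, which lowers cAMP and opens inwardly rectifying potassium channels, the 5-HT2 receptors couple to Gq/11 and phospholipase C, the 5-HT4, 5-HT6 and 5-HT7 receptors couple to Gs and raise cAMP, and the 5-HT3 receptor is a ligand-gated cation channel. In cortex and hippocampus the 5-HT3A subunit is known from a class of GABAergic interneurons, and 5-HT2C is known for its very high level in the choroid plexus.

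Read pairs counted on genes ranged from 11138676 to 20594364 per library, and 3 counts corresponded to 0.142 to 0.282 CPM (counts scaled to the TMM-adjusted library size). This floor covers counting error alone. Read pairs that fell on no gene made up 27.0 ± 5.09% of dorsal and 14.4 ± 3.0% of ventral read pairs (SD, n = 5 pools each, two-sided exact permutation test, p = 0.00794, the smallest that 5 against 5 allow), without overlap of the groups, and messages of the mitochondrial genome summed to 2968 ± 315 CPM dorsally and 790 ± 307 CPM ventrally, also without overlap and with the same exact p. Neither property can be fully told apart from the dorsoventral position. Of 7 mossy cell markers, all were detected in every library, and their summed level was 1731 to 2005 CPM dorsally and 1794 to 2102 CPM ventrally. This sum joins opposite differences and does not measure mossy cell content. Gria2, the most abundant, Gria3 and Cyp26b1 were called dorsal-enriched. Calb2 and Satb1 were called ventral-enriched, and Drd2 and Calcrl were not called. The log2 fold change was 0.81 (SE 0.10) for Gria2 and -3.24 (SE 0.14) for Calb2. Astrocyte markers summed to 1801 to 2029 CPM against 646 to 1178 CPM, and oligodendrocyte markers to 2104 to 2485 CPM against 725 to 1378 CPM, both higher in every dorsal library. Slc1a2 was the most abundant astrocyte marker. It was called dorsal-enriched, as were Gfap and Aqp4, while Gja1 was not called. Aldh1l1 was called ventral-enriched (log2 fold change -1.72, SE 0.49, edgeR adjusted p = 0.0164), so the astrocyte markers did not all share a direction. Granule cell markers also summed higher in every dorsal library, 279 to 340 CPM against 119 to 272 CPM. Prox1 made up most of this sum and was called dorsal-enriched (log2 fold change 0.72, SE 0.16, edgeR adjusted p = 0.00429). The other 4 of the 5 were not called. Among them Dsp (-0.31, SE 0.27) and Plk5 (-0.18, SE 0.39) had negative log2 fold changes, so these markers did not all share a direction either. The part of these cell types in the dorsal calls of Htr4 and Htr1d was not tested. Gad2, the most abundant of 12 interneuron markers, reached 2390 to 3416 CPM dorsally and 2668 to 3604 CPM ventrally. In bulk libraries of this kind, fewer cells of a type and less RNA per cell cannot be told apart.

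Of the 9 receptor genes tested, Htr3a was called ventral-enriched, Htr4 and Htr1d were called dorsal-enriched, and 6 were not called. Calling a gene required both an adjusted p below 0.05 by edgeR's quasi-likelihood test and a log2 ratio of group mean levels, after adding 1 CPM, beyond 0.58 in size. Of all 16806 tested genes 25.5% met this rule, 15.7% as dorsal-enriched and 9.85% as ventral-enriched, and the receptor counts of 2 and 1 out of 9 were near that background. For the same 3 receptors the dorsal and ventral libraries did not overlap. This held for 18.2% of all tested genes, with every dorsal library above every ventral one for 9.81% and the reverse for 8.36%. The median log2 fold change of the 9 receptors, dorsal minus ventral, was 0.28, against -0.0044 over all tested genes. Htr1d passed the filter through its dorsal libraries alone, so its presence among the tested genes already favoured a dorsal difference.

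**Figure D1:**
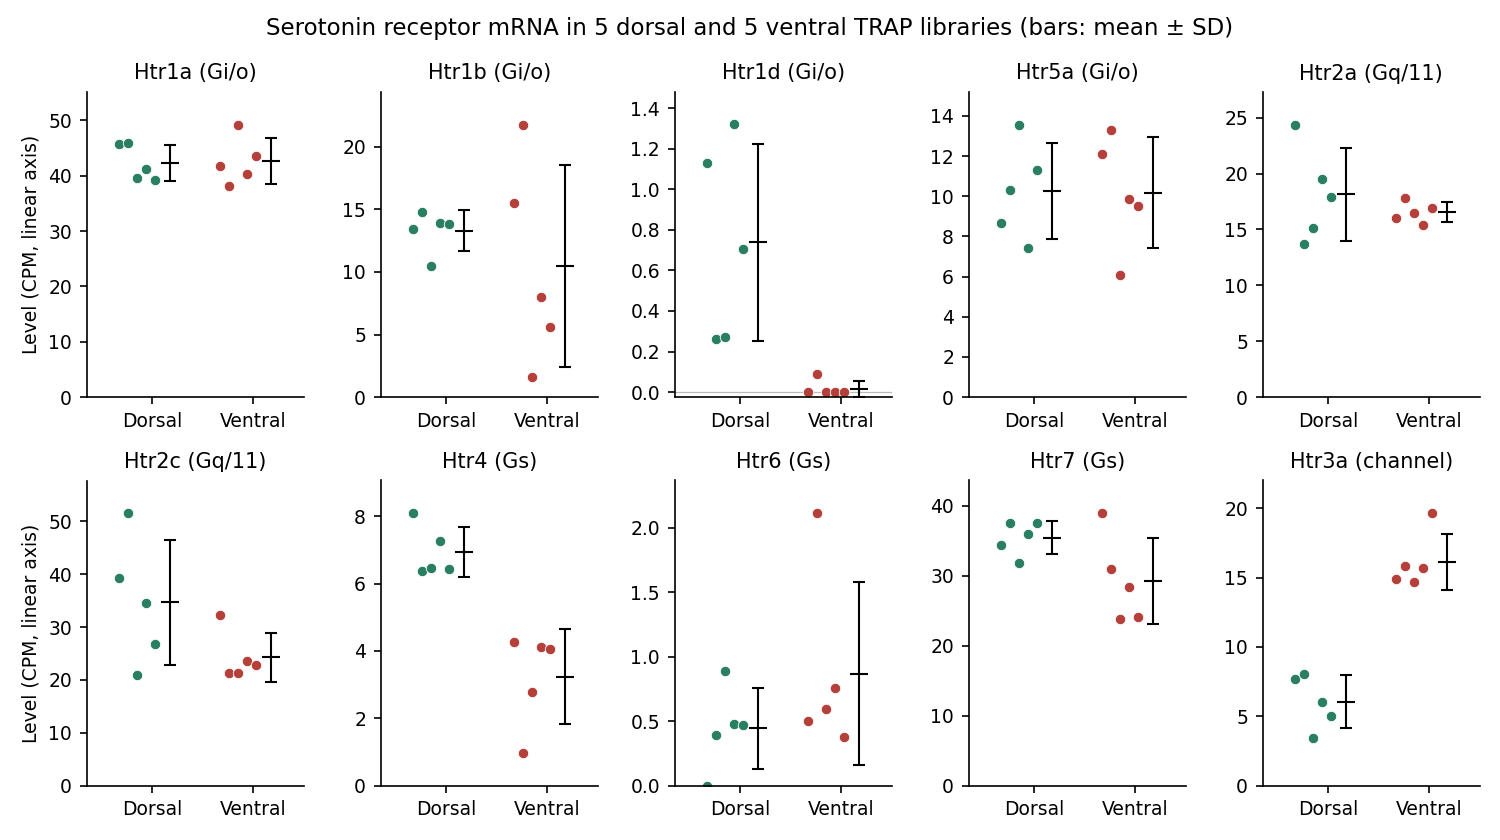
Level of each of the 10 serotonin receptor genes in CPM on linear axes, with 1 point per library (5 Dorsal in green, 5 Ventral in red) and bars for the mean ± SD. The 5 ventral points lie above the 5 dorsal points for Htr3a and below them for Htr4 and Htr1d, while the groups overlap for the other 7 genes.

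Htr3a (ENSMUSG00000032269), which encodes the obligatory subunit of the 5-HT3 channel, had the largest ventral excess among the receptors. It lies on the minus strand of chromosome 9 (48899213 to 48911099, GRCm38), and its 9 exon blocks span 2083 bases that no other annotated gene shares. Dorsal libraries 1 to 5 held 7.71, 8.06, 3.41, 6.07 and 5.03 CPM. Ventral libraries 1 to 5 held 14.9, 15.8, 14.7, 15.7 and 19.6 CPM. The lowest ventral library thus stood well above the highest dorsal one. The means were 6.05 ± 1.92 and 16.1 ± 2.02 CPM (SD, n = 5 pools each), a 2.67-fold ventral excess, and the log2 fold change, dorsal minus ventral, was -1.44 (SE 0.22, edgeR adjusted p = 0.00047). By the size of this difference Htr3a was number 541 of the 1655 genes called on the ventral side. With the share of read pairs on no gene as a covariate, a fit added after seeing the data, the log2 fold change was -0.90 and the call was lost (edgeR adjusted p = 0.249). In that fit the ventral calls over all tested genes fell from 1655 to 339.

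Since Drd2-Cre labels some interneurons, Htr3a was also set against interneuron messages of the same library. Per 1000 CPM of Gad1 plus Gad2, the enzymes of GABA synthesis, the Htr3a level was 2.07, 3.0, 1.31, 1.79 and 1.59 CPM in dorsal libraries 1 to 5. In ventral libraries 1 to 5 it was 3.72, 4.0, 4.44, 5.23 and 5.83 CPM. Each ventral library again exceeded each dorsal one, and the group means of 1.95 ± 0.647 and 4.64 ± 0.876 differed 2.38-fold (SD, n = 5 pools each, two-sided exact permutation test, p = 0.00794, the smallest possible). Against Slc32a1, the vesicular GABA transporter, the ventral excess was 2.53-fold, and against the sum of 12 interneuron markers it was 2.31-fold. The exact p was the same for each ratio. Gad1, Gad2 and Slc32a1 are among the 12, and Htr3a alone already separated the groups, so these ratios are not independent tests. Of 12 interneuron markers 4 were called ventral-enriched (Sst, Pvalb, Lhx6 and Nos1) and none dorsal-enriched, against 9.85% and 15.7% of all tested genes. Log2 fold changes were negative for 10 of the 12 and positive for 2. Gad1 (-0.46, SE 0.12, edgeR adjusted p = 0.0103) and Npy (-0.40, SE 0.13, edgeR adjusted p = 0.0311) fell short of the fold threshold alone. The sum of the 12 was 3581 to 4862 CPM dorsally and 4320 to 5644 CPM ventrally. The 10 markers of 5-HT3A class interneurons summed to 974 to 1308 CPM dorsally and 1351 to 1657 CPM ventrally, without overlap. Cnr1 was the most abundant, with 411 to 633 CPM dorsally and 570 to 777 CPM ventrally. Vip held 2.70 to 4.79 CPM dorsally and 0.968 to 6.50 CPM ventrally. Neither gene was called (edgeR adjusted p = 0.0307 for Cnr1 and 0.542 for Vip). Of these 10, 9 had a negative log2 fold change, and the median was -0.49. Sp8 had a positive value (0.94, SE 0.47, edgeR adjusted p = 0.134). Calls were made for 2 on the ventral side (Sncg and Npas1) and none on the dorsal side, against 9.85% and 15.7% of all tested genes. Cnr1, Reln, Cck and Adarb2 fell short of the fold threshold alone. Their log2 fold changes were negative, with edgeR adjusted p from 0.0048 (Reln) to 0.0495 (Adarb2). Relative to the sum of these 10 markers, a denominator chosen after seeing the data, the ventral excess of Htr3a was 2.04-fold. The exact p was the same and is again not independent of the other ratios.

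**Figure D2:**
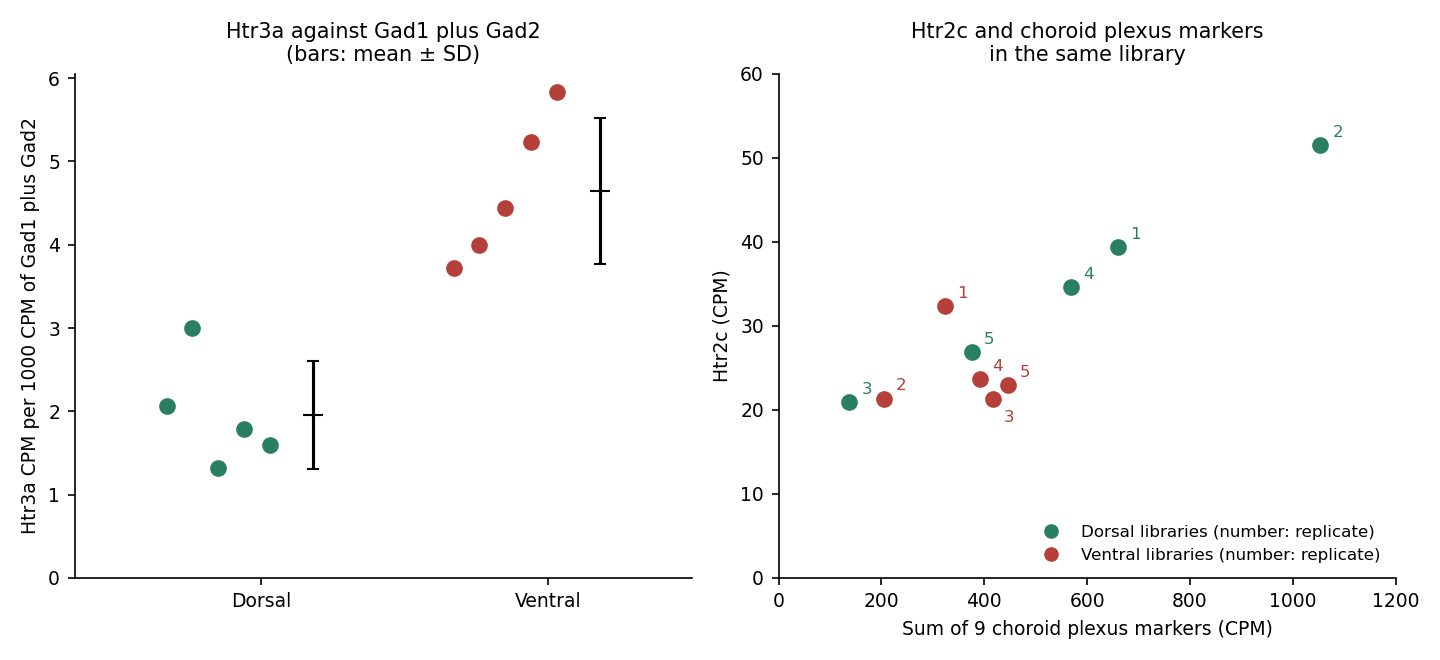
Left, Htr3a level per 1000 CPM of Gad1 plus Gad2 in each library with the mean ± SD, and right, Htr2c level against the summed level of 9 choroid plexus markers, both in CPM, with the replicate number beside each point (Dorsal green, Ventral red). The ventral ratios, 3.72 to 5.83, lie above the dorsal ones, 1.31 to 3.0. The dorsal libraries with a higher marker sum hold more Htr2c, from 20.9 CPM in library 3 to 51.5 CPM in library 2. The ventral libraries do not share this order.

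Among the Gs-coupled receptors, Htr4 differed and Htr7 and Htr6 did not pass the test or the filter. Htr4 (ENSMUSG00000026322, chromosome 18, 4908 exonic bases), the 5-HT4 receptor, held 8.09, 6.37, 6.47, 7.27 and 6.44 CPM in dorsal libraries 1 to 5. It held 4.27, 0.968, 2.79, 4.11 and 4.06 CPM in ventral libraries 1 to 5. The dorsal libraries were tightly grouped and all above the ventral ones, among which library 2 was lowest with 11 counts. The means of 6.93 ± 0.746 and 3.24 ± 1.40 CPM (SD, n = 5 pools each) gave a 2.14-fold dorsal excess and a log2 fold change of 1.0 (SE 0.28, edgeR adjusted p = 0.0165), number 2010 by size among the 2636 genes called on the dorsal side. Leaving out any single library kept the call, with log2 fold changes of 0.822 to 1.097, whereas the call was lost with the share of read pairs on no gene as a covariate (log2 fold change 1.38, edgeR adjusted p = 0.143). In that fit the dorsal calls over all tested genes fell from 2636 to 834.

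Htr7 (ENSMUSG00000024798), the 5-HT7 receptor and the most abundant Gs-coupled member, held 34.3, 37.6, 31.9, 36.0 and 37.5 CPM in dorsal libraries and 39.0, 30.9, 23.9, 28.3 and 24.2 CPM in ventral libraries. The highest value of all was in ventral library 1, so the groups overlapped. The log2 fold change was 0.28 (SE 0.15, 95% interval, not adjusted for the number of genes, -0.05 to 0.60, edgeR adjusted p = 0.176), and without ventral library 1 it was 0.41 with an adjusted p of 0.0399, still short of the fold threshold for a call. Htr6 (ENSMUSG00000028747), the 5-HT6 receptor, exceeded 1 CPM in 1 library and was not tested. Its counts were 0, 6, 13, 8 and 6 in dorsal and 9, 24, 7, 12 and 8 in ventral libraries. Without a filter on low counts its log2 fold change was -0.71 (SE 0.66, edgeR adjusted p = 0.612), and no difference was called.

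The Gi/o-coupled receptors included the least abundant and one of the most abundant members. Htr1d (ENSMUSG00000070687), the 5-HT1D receptor on chromosome 4 (136423524 to 136444398, plus strand), was counted 12, 4, 4, 22 and 9 times in dorsal libraries 1 to 5. In ventral libraries it was counted once, in library 2, and the other 4 libraries held 0 counts, which allows up to 0.142 to 0.253 CPM in each of these 4 at 3 counts. The dorsal levels of 0.260 to 1.32 CPM were therefore close to the floor in libraries 2 and 3 and above it in the others. The 51 dorsal counts against 1 ventral count, scaled by library size, gave a ratio of 56.9 with a 95% exact interval of 9.77 to 2292 that covers counting error alone. edgeR's log2 fold change was 5.12 (SE 1.28, adjusted p = 0.0098), a size that depends on the prior count. Htr1d entered the test through dorsal libraries 1 and 4 alone, so this adjusted p is no independent support for the dorsal direction. Only 0.571% of tested genes had a lower mean level, and without dorsal library 1 or dorsal library 4 Htr1d no longer passed the filter, so no value was obtained in these cases.

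Htr1a (ENSMUSG00000021721), the 5-HT1A receptor and the member with the highest CPM, held 45.8, 45.9, 39.5, 41.1 and 39.2 CPM in dorsal libraries and 41.7, 38.2, 49.2, 40.4 and 43.5 CPM in ventral libraries. The values interleaved. The log2 fold change was -0.01 (SE 0.12), with a 95% interval of -0.26 to 0.24 (edgeR adjusted p = 0.955). Htr5a (ENSMUSG00000039106), the 5-HT5A receptor, ranged from 7.45 to 13.6 CPM dorsally and from 6.08 to 13.3 CPM ventrally, with a log2 fold change of 0.01 and a wider 95% interval of -0.49 to 0.51 (edgeR adjusted p = 0.985).

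Htr1b (ENSMUSG00000049511), the 5-HT1B receptor found on many axon terminals, differed more between ventral pools than between regions. Dorsal libraries held 13.5, 14.8, 10.5, 13.9 and 13.8 CPM, and ventral libraries held 15.5, 21.7, 1.60, 7.97 and 5.57 CPM. Both the highest and the lowest level of this gene thus came from ventral libraries, numbers 2 and 3. The log2 fold change was 0.38 (SE 0.39, 95% interval -0.46 to 1.22, edgeR adjusted p = 0.480). An antisense gene, D430036J16Rik, overlaps 18.0% of the exonic length of Htr1b, and whether counting used strand is not given in the sources used here, so reads of both genes may be mixed.

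The Gq/11-coupled receptors Htr2c and Htr2a were not called. Htr2c (ENSMUSG00000041380, chromosome X) held 39.3, 51.5, 20.9, 34.6 and 26.9 CPM in dorsal libraries 1 to 5 and 32.3, 21.3, 21.3, 23.7 and 22.9 CPM in ventral libraries 1 to 5. Dorsal library 3 was the lowest of all and ventral library 1 was higher than dorsal libraries 3 and 5. The means of 34.6 ± 11.8 and 24.3 ± 4.62 CPM (SD, n = 5 pools each) gave a log2 fold change of 0.50 (SE 0.22, 95% interval 0.02 to 0.97), short of the threshold after adjustment (edgeR adjusted p = 0.0949). Without dorsal library 3 the log2 fold change was 0.65 and Htr2c was called dorsal-enriched (edgeR adjusted p = 0.0281).

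The spread of Htr2c among dorsal libraries went with that of choroid plexus markers, and the cause of this shared order was not tested. The 9 choroid plexus markers summed to 659, 1053, 136, 569 and 375 CPM in dorsal libraries 1 to 5, the same order as Htr2c. In ventral libraries 1 to 5 they summed to 324, 204, 417, 392 and 445 CPM, where the library highest in Htr2c was not the highest in the markers. Ttr, transthyretin, made up most of the sum (97.5 to 893 CPM in dorsal, 162 to 397 CPM in ventral libraries). Of the 9 markers 3 were called dorsal-enriched (Kl, Clic6 and Cldn2) and none ventral-enriched, against 15.7% and 9.85% of all tested genes. Folr1 and Slc4a5 were at 0 in dorsal library 3, and Kcnj13 and Slc4a5 were at 0 in ventral library 2. With the log2 of the marker sum as a covariate, a fit added after seeing the data, the log2 fold change of Htr2c was 0.29 (edgeR adjusted p = 0.215). In the same fit Htr3a was at -1.62 and Htr4 at 0.96, both still called. The decrease was not limited to Htr2c, since Htr1f went from 0.68 to 0.40 (edgeR adjusted p = 0.392). The plot of Htr2c against the marker sum shows the dorsal libraries in this shared order.

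Htr2a (ENSMUSG00000034997), the 5-HT2A receptor, ranged from 13.7 to 24.4 CPM dorsally and from 15.4 to 17.8 CPM ventrally. All ventral values lay within the dorsal range, and the log2 fold change was 0.12 (SE 0.17, 95% interval -0.25 to 0.49, edgeR adjusted p = 0.629).

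**Figure D3:**
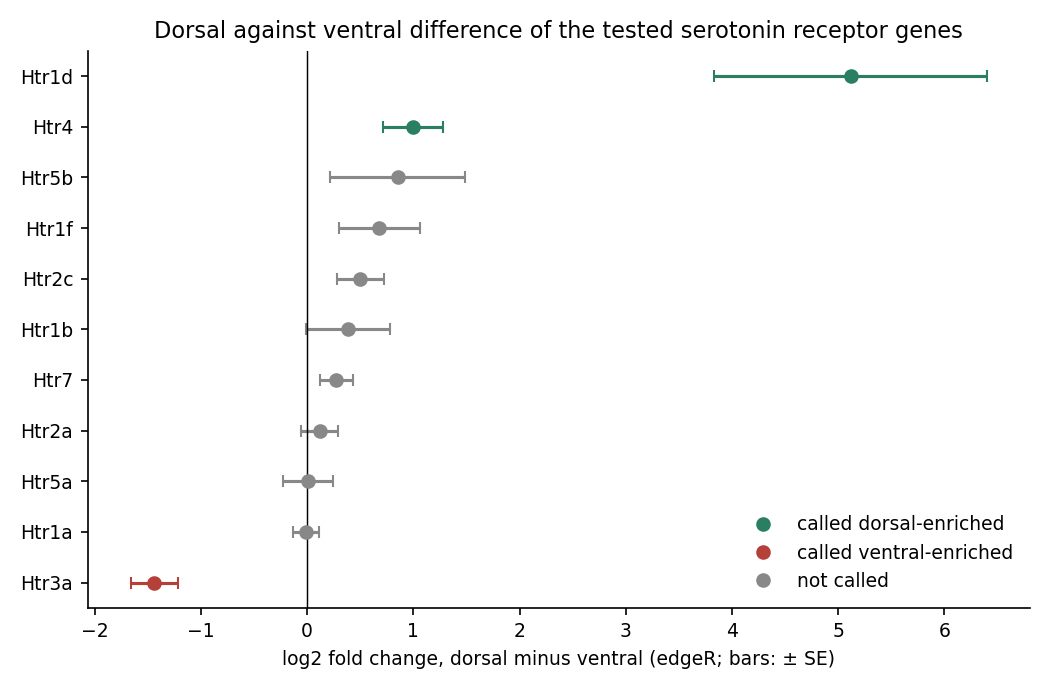
edgeR log2 fold change, dorsal minus ventral, with ± SE for the 9 tested members and for Htr1f and Htr5b, coloured by call. Htr3a lies at -1.44, Htr4 at 1.0 and Htr1d at 5.12 with an SE of 1.28, and the uncalled receptors lie between -0.01 and 0.85.

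Levels of different receptors were compared per kb of exonic length. In dorsal libraries the order of mean levels was Htr7 (10.4 CPM per kb), Htr1a (9.44), Htr2c (3.71), Htr2a (3.23), Htr3a (2.91), Htr1b (2.81), Htr5a (1.91), Htr4 (1.41), Htr1d (0.231) and Htr6 (0.190). In this order the ranges of neighbours overlapped except for Htr1a above Htr2c and Htr4 above Htr1d, which held in 5 of 5 libraries each. In ventral libraries the order was Htr1a (9.50 CPM per kb), Htr7 (8.61), Htr3a (7.75), Htr2a (2.95), Htr2c (2.60), Htr1b (2.22), Htr5a (1.89), Htr4 (0.660), Htr6 (0.371) and Htr1d (0.0055). There the ranges of neighbours overlapped except for Htr3a above Htr2a, Htr5a above Htr4 and Htr6 above Htr1d. Htr3a thus had rank 5 among the dorsal levels, overlapping its neighbours Htr2a and Htr1b, and rank 3 among the ventral levels, overlapping Htr7.

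The summed level of the 10 receptors was 36.3 ± 3.39 CPM per kb dorsally and 36.6 ± 3.29 CPM per kb ventrally (SD, n = 5 pools each, no test). Its composition by coupling class differed most for the channel. Htr3a made up 7.87 ± 1.87% of the summed level in dorsal libraries (5.23 to 9.73%) and 21.4 ± 3.33% in ventral libraries (17.5 to 26.4%). The Gs-coupled receptors made up 33.3 ± 2.47% and 26.2 ± 3.08%, the Gi/o-coupled receptors 39.8 ± 2.21% and 37.2 ± 1.95%, and the Gq/11-coupled receptors 19.0 ± 2.42% and 15.2 ± 0.732%. These shares are bound to sum to 100% and carry no test of their own, and the plot of shares by library shows the channel's larger portion in each ventral library.

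**Figure D4:**
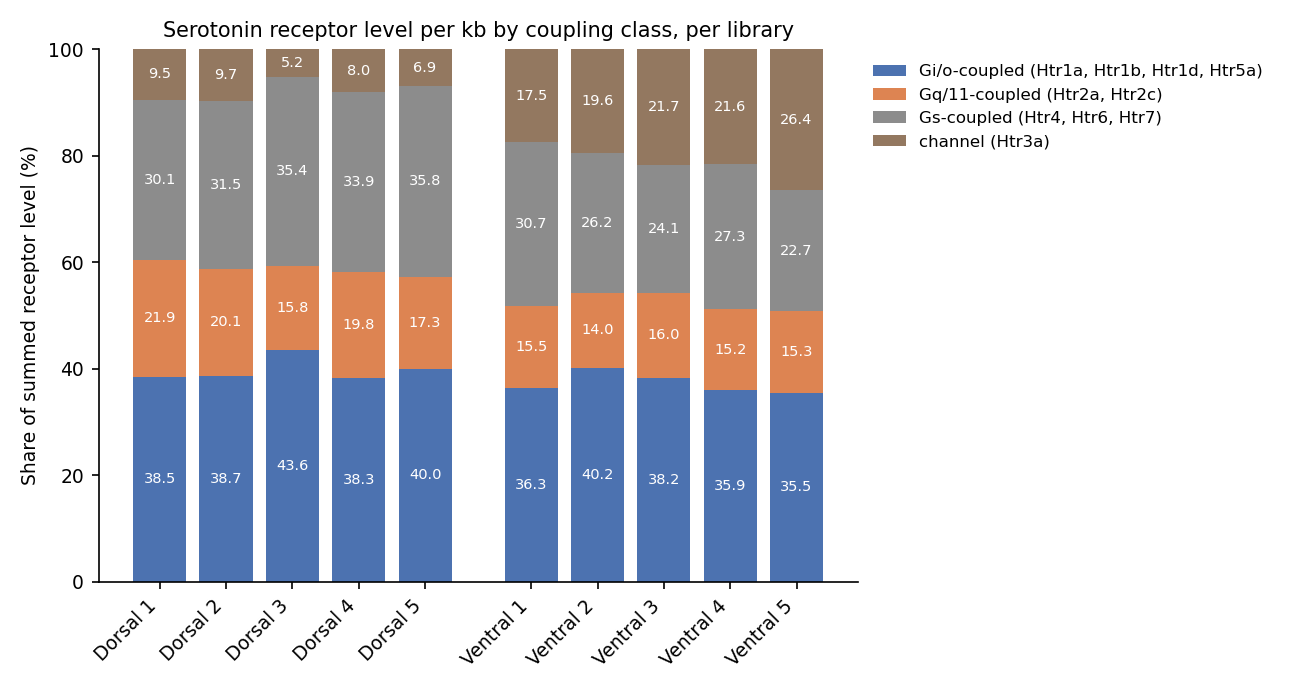
Share of the summed receptor level per kb, in percent, taken by each coupling class in each of the 10 libraries, with the share printed in each bar segment. The channel Htr3a takes 5.23 to 9.73% in dorsal and 17.5 to 26.4% in ventral libraries.

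The remaining 4 mouse serotonin receptor genes were low or variable, and none was called. Htr1f, the Gi/o-coupled 5-HT1F receptor, held 5.59 to 13.4 CPM dorsally and 1.06 to 8.53 CPM ventrally, with a log2 fold change of 0.68 (SE 0.38, edgeR adjusted p = 0.185). Htr5b, which encodes the 5-HT5B receptor, held 0.545 to 2.04 CPM dorsally and 0.0844 to 2.11 CPM ventrally, with a log2 fold change of 0.85 (SE 0.64, edgeR adjusted p = 0.317). Htr3b, the partner subunit of Htr3a in heteromeric channels, and the Gq/11-coupled Htr2b did not pass the filter. Htr3b was counted 47 times in dorsal library 1 and 0 to 9 times in each of the other libraries. Htr2b was counted 6 to 16 times in dorsal and 1 to 4 times in ventral libraries, and 11.8% of its exonic length is shared with Psmd1 on the other strand.

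Of 14 listed genes that make, move and break down serotonin, 10 were tested, 2 were called dorsal-enriched and 1 ventral-enriched, near the shares over all tested genes (15.7% and 9.85%). Slc18a2, the vesicular monoamine transporter, averaged 16.6 ± 4.86 CPM dorsally and 8.36 ± 1.74 CPM ventrally (SD, n = 5 pools each), a log2 fold change of 1.01 (SE 0.24, edgeR adjusted p = 0.00669). The highest ventral library, at 11 CPM, exceeded the lowest dorsal one, at 9.49 CPM. Tph2, the rate-limiting enzyme of neuronal serotonin synthesis, was low, with 5.36, 2.86, 0.750, 2.46 and 2.51 CPM in dorsal and 0.388, 0.528, 1.77, 0.316 and 1.09 CPM in ventral libraries. Its log2 fold change was 1.73 (SE 0.54, edgeR adjusted p = 0.0234), but the groups overlapped. The call was lost without ventral library 1 or 4 (edgeR adjusted p = 0.0572 and 0.0631). It was also lost with the log2 of the choroid plexus marker sum as a covariate (edgeR adjusted p = 0.0551).

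Spr, sepiapterin reductase of the tetrahydrobiopterin pathway that supplies the cofactor of Tph2, was ventral-enriched, with 18.5 to 24.6 CPM dorsally and 44.4 to 72.9 CPM ventrally and a log2 fold change of -1.27 (SE 0.17, edgeR adjusted p = 0.000151). Slc6a4, the serotonin transporter of raphe axons, was not tested. Its level was 1.69, 0, 0.0681, 0.901 and 0.786 CPM in dorsal libraries, and none of the ventral libraries exceeded 0.338 CPM. The monoamine oxidases were not called, with log2 fold changes of -0.32 for Maoa (SE 0.20, edgeR adjusted p = 0.219) and 0.33 for Maob (SE 0.26, edgeR adjusted p = 0.344).

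Downstream of the Gi/o-coupled receptors, the inwardly rectifying potassium channel subunits moved in opposite directions while the G protein subunits were not called. The list of 8 genes held 2 calls on the dorsal side and 1 on the ventral side, against 15.7% and 9.85% of all tested genes. Kcnj6, which encodes GIRK2, averaged 31.8 ± 2.48 CPM dorsally and 14.9 ± 5.07 CPM ventrally (log2 fold change 1.08, SE 0.20, edgeR adjusted p = 0.00128). Kcnj3, which encodes GIRK1, averaged 295 ± 46.7 and 156 ± 25.2 CPM (log2 fold change 0.92, SE 0.13, edgeR adjusted p = 0.000325), and 31.1% of its exonic length is shared with the antisense gene Gm26794. Kcnj9, which encodes GIRK3, averaged 21.5 ± 2.70 and 41.5 ± 9.17 CPM (log2 fold change -0.94, SE 0.17, edgeR adjusted p = 0.00112). All 5 dorsal libraries were above all ventral ones for Kcnj3 and Kcnj6 and below them for Kcnj9. Under an offset for GC content and length the difference of Kcnj9 was smaller, -0.60 on the log2 scale, and its call was lost at the fold threshold.

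In the cAMP branch, 3 of 9 listed genes were called dorsal-enriched and none ventral-enriched, against 15.7% and 9.85% of all tested genes, with no test of the list itself. The summed level of the 9 was 1233 to 1401 CPM dorsally and 741 to 898 CPM ventrally. Adcy1, a calcium-stimulated adenylyl cyclase, averaged 743 ± 71.5 and 330 ± 44.7 CPM (SD, n = 5 pools each, log2 fold change 1.17, SE 0.11, edgeR adjusted p = 1.63e-05) and supplied most of that difference. Adcy5 ranged from 39.5 to 48.9 CPM dorsally and from 21.6 to 30.2 CPM ventrally (log2 fold change 0.65, SE 0.13, edgeR adjusted p = 0.00248), and without ventral library 2 it fell short of the fold threshold. Adcy6 had a log2 fold change of 0.80 (SE 0.25, edgeR adjusted p = 0.0249), overlapping levels of 4.61 to 6.96 and 2.70 to 4.68 CPM, and no call without dorsal library 4, dorsal library 5 or ventral library 5 (edgeR adjusted p of 0.0675, 0.0523 and 0.0632).

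In the Gq/11 branch, Plcb4 alone of 6 listed genes was called, on the dorsal side, as were 15.7% of all tested genes. This phospholipase C isoform averaged 240 ± 12.6 CPM dorsally and 126 ± 25.3 CPM ventrally, without overlap (SD, n = 5 pools each, log2 fold change 0.94, SE 0.13, edgeR adjusted p = 0.000182). Of 9 receptor partners, chaperones and RNA-editing enzymes none was called, against 25.5% of all tested genes called in either direction. S100a10, also known as p11, which binds 5-HT1B and 5-HT4 receptors, ranged from 13.5 to 26.8 CPM dorsally and from 19.2 to 28.5 CPM ventrally (log2 fold change -0.30, SE 0.21, edgeR adjusted p = 0.283). Of the 10 called genes of serotonin handling and signalling, Spr, Kcnj3 and Adcy1 were still called with the share of read pairs on no gene as a covariate, and the other 7 were not (edgeR adjusted p of 0.0549 for Plcb4 to 0.480 for Slc18a2). Over all tested genes, dorsal calls fell from 2636 to 834 and ventral calls from 1655 to 339 with this covariate.

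**Figure D5:**
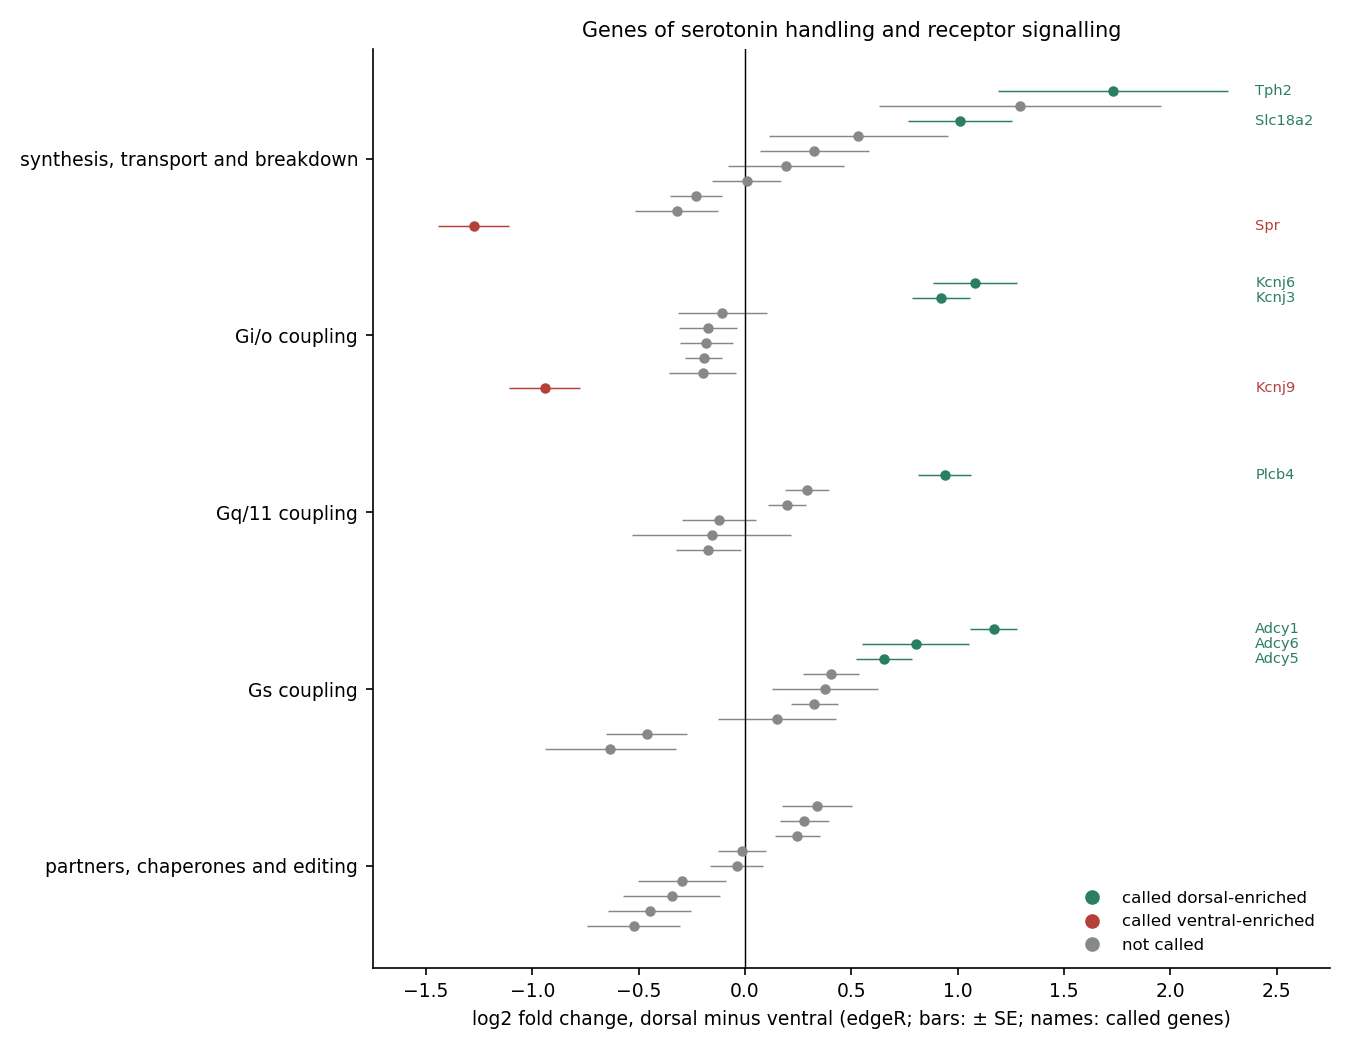
edgeR log2 fold change, dorsal minus ventral, with ± SE for the 42 tested genes of serotonin handling and receptor signalling, grouped by list, with the names of called genes at the right. Each of the 3 coupling lists holds at least 1 gene called dorsal-enriched, Spr and Kcnj9 are called ventral-enriched, and no receptor partner is called.

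For each called receptor, the 3 genes with the most similar log2(CPM + 1) over the 10 libraries were listed as a description. The libraries share their group, so genes that differ between the regions resemble each other on this measure. Htr3a was closest to Ezh1, Nme1 and Sowahb (Pearson r 0.98 each), Htr4 to Fat4 (0.98), Tgfbr3 (0.97) and Lrrc7 (0.97), and Htr1d to Lama4 (0.99), Gm45555 (0.99) and Gm29674 (0.98). The 3 genes closest to Htr1d averaged 2.04 to 3.71 CPM dorsally and at most 0.197 CPM ventrally, low levels that were still above those of Htr1d dorsally.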

How the data were processed

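Ribosome-bound RNA was precipitated from pooled dorsal or ventral hippocampi (5 libraries each). The authors amplified it with an Ovation kit and sequenced paired ends. Per the labels, alignment to GRCm38 used STAR 2.5.2b and counting used HTSeq 0.7.2. The deposited values are whole-number counts of read pairs for each Ensembl gene, neither normalized nor filtered by the authors. The annotation release and the strand setting are not given in the sources used here, and rows that name no gene were left out of library sizes (the row for no feature held on average 27.0% of dorsal and 14.4% of ventral read pairs). Symbols, positions and exonic lengths came from GENCODE for GRCm38, which matched 54809 of 54838 identifiers.

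The fit used edgeR 4.0.16 in R 4.3.3 on the 16806 genes that exceeded 1 CPM in 2 or more libraries, with TMM factors, group as the only term, the quasi-likelihood test and Benjamini-Hochberg adjustment across the whole table. Calls needed an adjusted p below 0.05 and a log2 ratio of mean levels (1 CPM added) beyond 0.58. The standard error of a log2 fold change is its size over the root of F. Ratios were tested by two-sided exact permutation, and the count test was tested on simulated data, where more of its calls were false than the threshold on the adjusted p allows, so that the quasi-likelihood dispersions of edgeR 3 were added as an alternative. The interval of the Htr1d count ratio and the floors cover counting error only, and amplified reads are not independent molecules. The 95% intervals of log2 fold changes come from the edgeR fit and include the spread between libraries. No 2 libraries of a group were duplicates (chi-square per degree of freedom 4.36 to 45.1).

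Named were all members, the 4 remaining receptor genes, every called gene of the pathway lists, Slc6a4, Tph2, Maoa, Maob and S100a10, and 3 similar genes per called member. The members and lists were chosen with earlier results of these data known. Alternatives covered other scaling, filters, tests (DESeq2 1.42.0), thresholds, the replicate block, GC and length offsets (mgcv 1.9.3), gene subsets and leaving out each library.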

Additional observations from a re-analysis of the deposited data

Results flagged for a closer look

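Within groups of 5 libraries, 9 of 56 groups examined held 1 library far from the other 4. The limit exceeded was Dixon's 95% critical ratio of gap to range (0.71). For independent, normally distributed values chance alone gives about 1 in 20, here 2.8. Counts near 0, as for Htr1d and Slc6a4, do not meet this condition, so 9 was not tested against 2.8. Among the receptors, ventral library 5 was high for Htr3a (19.6 CPM, others 14.7 to 15.8) and ventral library 1 was high for Htr2c (32.3 CPM, others 21.3 to 23.7). Ventral library 2 was high for Htr6 (2.11 CPM from 24 counts, others 0.378 to 0.759), and it was the 1 ventral library with a count of Htr1d (0.0880 CPM). Dorsal library 1 was high for Htr3b (4.42 CPM from 47 counts, others 0.0681 to 0.314). Among the pathway genes, ventral library 3 was high for Spr (72.9 CPM, others 44.4 to 49.7) and for Slc6a4 (0.338 CPM from 4 counts, others 0 to 0.0880), ventral library 2 was low for Adcy1 (251 CPM, others 341 to 364), and dorsal library 4 was high for Adcy5 (48.9 CPM, others 39.5 to 41.8). Without ventral library 5 the log2 fold change of Htr3a was within the range given in the next section, and its call remained. The causes of these values were not tested.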

How the results depend on the processing

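Htr3a was called ventral-enriched in all settings but 1 of 19 and without any single library, and the count of dorsal-enriched receptors stayed at 2 in 16 of 19 settings. It was 1 under a filter of CPM above 1 in at least 5 libraries, where Htr1d was not tested, 1 at an adjusted p below 0.01, where Htr4 was lost (edgeR adjusted p = 0.0165), and 1 with the share of read pairs on no gene as a covariate, where the count of ventral-enriched receptors was 0. Leaving out 1 library gave 1 to 3 dorsal-enriched receptors (1 without dorsal library 1 or 4, 3 without dorsal library 3) and always 1 ventral-enriched receptor, and log2 fold changes of -1.58 to -1.28 for Htr3a, 0.822 to 1.097 for Htr4 and 4.81 to 6.49 for Htr1d. The log2 ratio of Htr3a to Gad1 plus Gad2, ventral over dorsal, was 1.25, and 1.14 to 1.46 without 1 library (exact permutation, p = 0.0159 each, the smallest that 5 against 4 allow). The covariates, the dispersions of edgeR 3 and the 5-HT3A class denominator were chosen after seeing the data.

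Several genes without a call changed sign. Htr1a, at -0.01, was positive under DESeq2 size factors (0.0173), upper-quartile factors (0.0288), total counts (0.0020), the stricter filter (0.0119), DESeq2 (0.0179), GC and length offsets (0.0746, and 0.0715 with the replicate block) and protein-coding genes alone (0.0149), and without 1 library it was -0.0428 to 0.0378. Htr5a was negative under the offsets (-0.0169, with the block -0.0255) and the no-gene covariate (-0.29), and without 1 library it was -0.11 to 0.12. Htr2a (-0.0718, with the block -0.0648) and Htr1f (-0.0252, with the block -0.0374) were negative under the offsets, and Maoa (0.49) and Maob (-0.0900) changed sign under the no-gene covariate. Over all genes, dorsal and ventral calls fell to 1498 and 897 at an adjusted p below 0.01 and to 834 and 339 with the no-gene covariate, and dorsal calls to 1665 among protein-coding genes. Maoa was called ventral-enriched under the offsets (-0.72). With the dispersions of edgeR 3, 2217 dorsal and 1408 ventral calls were made over all genes, and 2 and 1 among the receptors. The causes were not tested.

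Dorsal and ventral samples come from the same set of mice and share replicate numbers, but neither the labels nor the methods say that equal numbers mark the same pool of mice. Deviations of same-numbered libraries correlated at -0.0317 to 0.0695, and 2 of 5 dorsal libraries correlated best with their own number. With the replicate number as a block, 2 dorsal-enriched and 1 ventral-enriched receptors were called, with log2 fold changes of -1.43 for Htr3a, 1.06 for Htr4 and 5.23 for Htr1d. In an exact permutation that flipped the signs of same-numbered pairs, added after seeing the data, the log2 ratio of Htr3a to Gad1 plus Gad2 was 1.25 with p = 0.0625, the smallest that 5 pairs allow. Depth limits Htr1d, Htr6, Htr2b, Htr3b and Slc6a4, whose levels lay near 3 counts in part of the libraries.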
